A study of Mus musculus with 6 samples.

Results

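The genes described here make, move and break down prostaglandins. They are 10 genes of 55385 mouse gene rows in the count table, taken by name: Pla2g4a, Ptgs1, Ptgs2, Ptges, Ptges2, Ptges3, Ptgis, Hpgd, Abcc4 and Slco2a1. RNA was sequenced from PDVC57, an established mouse squamous carcinoma cell line of keratinocyte origin, in 3 libraries labelled Sox2 KO (Sox2 knocked out) and 3 labelled Sox2 overexpression. The design text speaks of Sox2low and Sox2Hi cells taken out of tumours grown as grafts, and asks which programmes of Sox2 in tumour-initiating cells act on neutrophils. Both groups share the cell line, and no group of unmodified PDVC57 cells was analysed here, so each difference is between cells labelled as lacking Sox2 and cells labelled as carrying extra Sox2. The host animals, the sorting of the cells, the number of clones and the promoter that drives Sox2 are not given in the sources used here.

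Prostaglandins are short-lived lipid signals made from arachidonic acid. Cytosolic phospholipase A2 frees the fatty acid from membranes, the cyclooxygenases turn it into prostaglandin H2, and terminal synthases convert that into prostaglandin E2, prostacyclin or other prostanoids. Multidrug resistance protein 4 can carry prostaglandins out of the cell, the prostaglandin transporter brings them back in, and a dehydrogenase inactivates them. In skin and squamous tumours prostaglandin E2 is known for effects on keratinocyte growth, blood vessels and immune cells.

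The libraries held 31247976 to 38543221 counts over mouse genes. Sox2 gave 25 to 49 counts per knockout library and 2566 to 4095 per overexpression library (log2 fold change 6.58 in the quasi-likelihood test of edgeR, adjusted p = 2.29e-06), so the libraries sorted as labelled. All 15 epithelial markers were measured in every library, with summed levels of 6189 to 9569 CPM (counts scaled to library size by TMM, a trimmed mean of ratios) in the knockout group and 15494 to 19953 CPM in the overexpression group. Of these markers, 11 were higher with an adjusted p under 0.05 and 0 lower, and their log2 fold changes ran from 0.15 (Itga6) to 3.42 (Krt6a). Markers of fibroblasts summed to 53125 to 81063 CPM in the knockout libraries and to 308 to 466 CPM in the overexpression libraries, and all 10 were lower in the overexpression group. Of 18504 genes tested, 31.6% had an adjusted p under 0.05, 13.6% higher and 18.0% lower in the overexpression group. Since the libraries are bulk RNA, fewer cells of a type and less RNA per cell cannot be told apart.

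All 10 genes were tested, and 5 had an adjusted p under 0.05, against 31.6% of all genes. Ptges and Abcc4 were higher with Sox2 overexpression when libraries were scaled to all genes, and their difference was close to 0 when libraries were scaled to the epithelial markers. Ptgis, Hpgd and Slco2a1 were lower under every scaling. Hpgd passed the count filter through its knockout counts alone, so it could only come out lower. The other 5, Pla2g4a, Ptgs1, Ptgs2, Ptges2 and Ptges3, did not pass the threshold. The median log2 fold change of the 10 genes was 0.57, and it was the same with Hpgd at the lower bound of its fall, against -0.016 over all genes tested. The groups did not overlap for 6 of the 10 genes, against 50.9% of all genes.

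**Figure D1:**
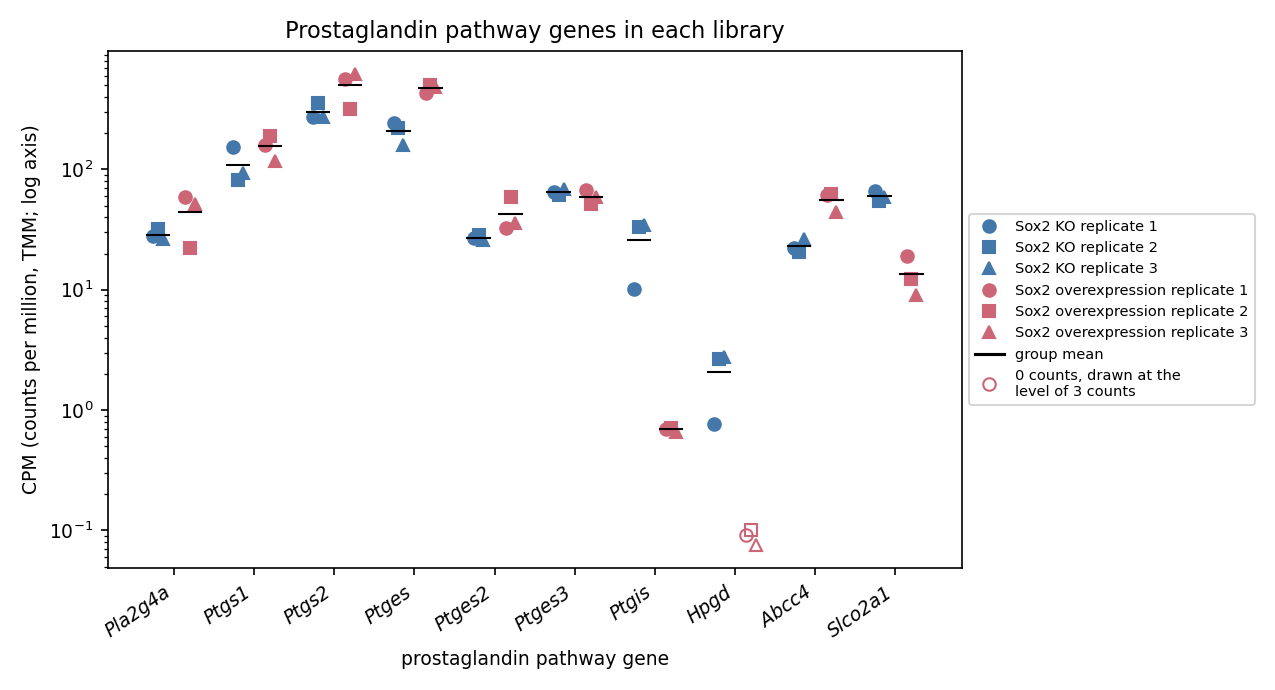
Level of each gene in each library, in CPM on a log axis, with blue symbols for the 3 Sox2 KO libraries, red symbols for the 3 Sox2 overexpression libraries and a line at each group mean. Open symbols mark the 0 counts of Hpgd, drawn at the level that 3 counts would give in that library. The groups are apart for Ptges, Ptges2, Ptgis, Hpgd, Abcc4 and Slco2a1, and overexpression replicate 2 (red squares) is the lowest red symbol for Pla2g4a and Ptgs2.

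Pla2g4a encodes cytosolic phospholipase A2 alpha, which releases arachidonic acid from membrane phospholipids (ENSMUSG00000056220, chromosome 1, 149829618 to 149961290, minus strand, GRCm38). Its level was 27.9, 31.9 and 26.3 CPM in knockout replicates 1, 2 and 3, and 58.8, 22.3 and 51.4 CPM in overexpression replicates 1, 2 and 3. Overexpression replicate 2 lay below every knockout library, while the other overexpression libraries lay above them all. The fitted log2 difference was 0.62 (standard error 0.32) and its 95% interval ran from -0.096 to 1.34 (edgeR, adjusted p = 0.168). Without overexpression replicate 2 it was 0.96 (adjusted p = 0.00313; 0.00313 to 0.399 over the alternatives).

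The cyclooxygenases came next in the pathway. Ptgs2, the inducible cyclooxygenase-2 gene (ENSMUSG00000032487, chromosome 1, 150100031 to 150108227, plus strand), had 275, 354 and 273 CPM in the knockout libraries and 562, 317 and 619 CPM in the overexpression libraries. Again overexpression replicate 2 stood apart from its group, falling inside the knockout range. For Ptgs2 the fitted log2 difference was 0.73 (standard error 0.26), with a 95% interval from 0.15 to 1.31 (edgeR, unadjusted p = 0.0202, adjusted p = 0.0599). It was 0.99 (adjusted p = 0.00562) without overexpression replicate 2, and the DESeq2 test gave an adjusted p of 0.0226; 0.00562 to 0.173 over the alternatives. Under the epithelial scaling its log2 fold change was -0.49 (adjusted p = 0.159).

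Ptgs2 and Pla2g4a are neighbours on chromosome 1. The gap between them is 138.7 kb and holds 3 annotated genes, of which 0 are protein-coding, Ptgs2os among them. In both genes, overexpression replicates 1 and 3 were the highest libraries. The pattern was noticed after the values were seen, and no test was made of it. Anxa1, a gene of the wider pathway list whose product is known to restrain phospholipase A2 activity, also had its lowest overexpression value in replicate 2 (3584, 1607 and 2781 CPM), next to 1632, 1233 and 1502 CPM with knockout. Its adjusted p was 0.0504.

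Ptgs1, the constitutive cyclooxygenase-1 gene (ENSMUSG00000047250, chromosome 2, 36230426 to 36252272, plus strand), had 153, 82.5 and 93.0 CPM with knockout and 160, 190 and 117 CPM with overexpression. Knockout replicate 1 lay among the overexpression libraries. Its log2 fold change was 0.51 with a 95% interval from -0.096 to 1.12 (edgeR, adjusted p = 0.179), and 0.84 (adjusted p = 0.0343; 0.0343 to 0.425 over the alternatives) without knockout replicate 1. Under the epithelial scaling Ptgs1 fell by 0.69 on the log2 scale (adjusted p = 0.0471). That is a smaller fall than the median of all genes under that scaling, -1.25. A short stretch of its exons, 3.81%, overlaps Gm43621 on the other strand.

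The balance of both cyclooxygenases was compared within each library, where the scaling of libraries cancels. Counts of Ptgs2 were 1.80, 4.29 and 2.94 times those of Ptgs1 in the knockout libraries and 3.52, 1.66 and 5.27 times in the overexpression libraries. Transcripts of the inducible gene thus gave more counts than those of the constitutive gene in 6 of 6 libraries, with no correction for length. The log2 ratio was 1.503 ± 0.627 with knockout and 1.65 ± 0.844 with overexpression (SD, n = 3 each), a difference of 0.15 (two-sided exact permutation test, p = 0.8, where the smallest p possible is 0.1). The groups overlapped, and the spread within each was larger than the difference between them.

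Ptges encodes microsomal prostaglandin E synthase-1, the inducible enzyme that acts with cyclooxygenase-2 (ENSMUSG00000050737, chromosome 2, 30889471 to 30929863, minus strand). The 250 bases before its RefSeq start site are shown because Ptges had the highest level per length of the 10 genes in the overexpression group. They lie on the minus strand of GRCm38.p6, chr2:30903298-30903547, and capitals mark matches to GGGCGG (the GC box) and ACAANG (the SOX core), searched on both strands. This window lies inside the annotated span of Ptges given above, so it is upstream of that RefSeq start only.

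Ptges: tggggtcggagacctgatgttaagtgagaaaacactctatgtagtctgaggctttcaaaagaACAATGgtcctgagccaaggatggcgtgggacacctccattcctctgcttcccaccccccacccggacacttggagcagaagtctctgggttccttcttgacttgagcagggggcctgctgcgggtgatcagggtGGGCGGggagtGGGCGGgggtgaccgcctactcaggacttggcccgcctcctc

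The level of Ptges was 243, 220 and 159 CPM with knockout and 434, 508 and 489 CPM with overexpression. The groups were fully apart, and the overexpression mean was 2.30 times that with knockout. This rise was 1.202 on the log2 scale (standard error 0.19, 95% interval 0.76 to 1.64; edgeR, adjusted p = 0.00168). The call held with each library left out in turn. Under the epithelial scaling it was -0.0013 (adjusted p = 0.997), with a 95% interval from -0.55 to 0.55. No rise was thus measured relative to the median of the epithelial markers. Those markers themselves spread from 0.15 (Itga6) to 3.42 (Krt6a) under TMM scaling, so Ptges rose more than some and less than others.

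The other prostaglandin E synthases are unrelated to Ptges and less inducible. Ptges2 (microsomal prostaglandin E synthase-2, ENSMUSG00000026820, chromosome 2, 32395896 to 32405772, plus strand) had 27.0, 28.4 and 26.1 CPM with knockout and 32.8, 58.6 and 36.1 CPM with overexpression. Its groups did not overlap, and overexpression replicate 2 was the highest library. Its log2 difference was 0.65 with a 95% interval from 0.13 to 1.16 (edgeR, unadjusted p = 0.0192, adjusted p = 0.0579). The call changed with the setting, and the adjusted p was 0.0266 without overexpression replicate 1, 0.0447 without replicate 2 and 0.0332 in the DESeq2 test; 0.0154 to 0.137 over the alternatives. Without overexpression replicate 2 the log2 fold change was 0.36, and under the epithelial scaling -0.62.

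Ptges3, which encodes the cytosolic prostaglandin E synthase also known as the Hsp90 co-chaperone p23 (ENSMUSG00000071072, chromosome 10, 128058954 to 128077272, plus strand), had 65.4, 60.8 and 68.3 CPM with knockout and 67.4, 51.7 and 58.5 CPM with overexpression. The groups overlapped, and the log2 difference was -0.13 with a 95% interval from -0.47 to 0.21 (edgeR, adjusted p = 0.536). Under the epithelial scaling Ptges3 fell by 1.37 on the log2 scale (adjusted p = 0.00085). That is close to the median of all genes under that scaling, -1.25. A processed pseudogene, Ptges3-ps on chromosome 6, resembles this gene and had 14 to 148 counts in a library, so the split of reads between them is uncertain.

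Within a library, counts of Ptges were 3.71, 3.62 and 2.33 times those of Ptges3 with knockout and 6.43, 9.82 and 8.35 times with overexpression. The log2 ratio was 1.66 ± 0.380 with knockout and 3.01 ± 0.308 with overexpression (SD, n = 3 each), a difference of 1.36. It was higher in each of the 3 overexpression libraries than in any knockout library (two-sided exact permutation test, p = 0.1, the smallest p possible). This shift toward the inducible synthase does not depend on how libraries are scaled, and it shows that Ptges and Ptges3 changed unequally, not which of them moved.

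**Figure D2:**
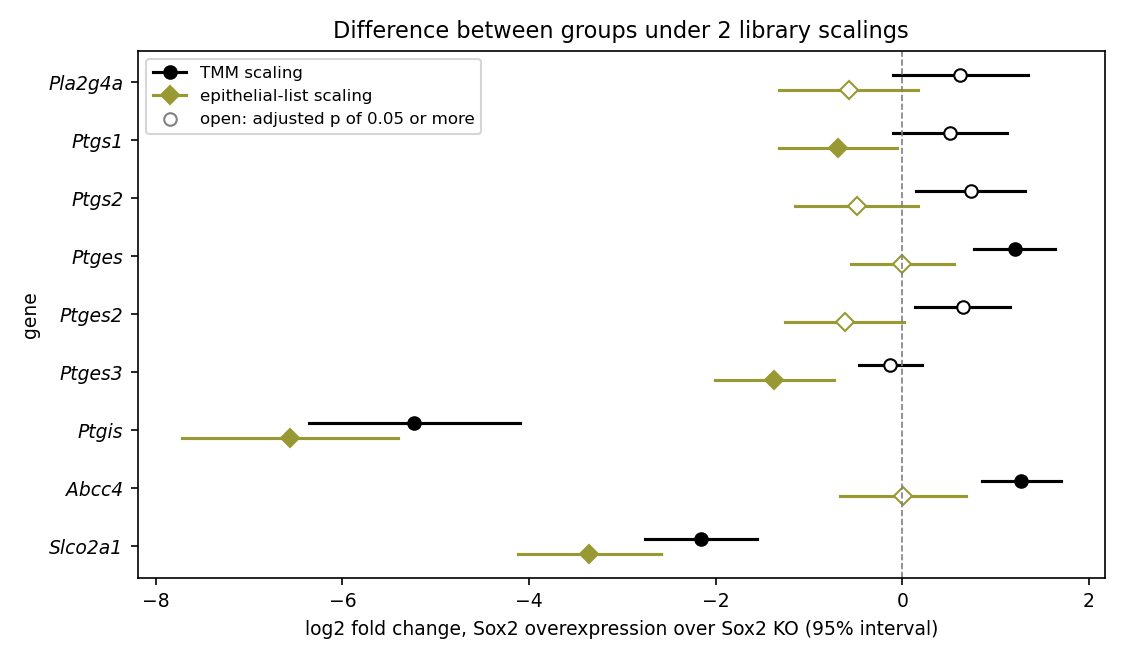
Log2 fold change of overexpression over knockout for 9 of the 10 genes with its 95% interval, under TMM scaling (black circles) and under scaling to the 15 epithelial markers (olive diamonds); filled symbols have an adjusted p under 0.05. Hpgd is left out because its overexpression libraries held 0 counts. Ptgis and Slco2a1 lie below 0 under both scalings, while Ptges and Abcc4 move from 1.202 and 1.27 to -0.0013 and 0.010.

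Ptgis encodes prostacyclin synthase, which is best known from blood vessels and stromal cells (ENSMUSG00000017969, chromosome 2, 167191805 to 167240604, minus strand). It had 10.2, 33.3 and 34.5 CPM with knockout and 0.702, 0.710 and 0.658 CPM with overexpression. Knockout replicate 1 was the lowest of its group, and the overexpression libraries, at 21 to 26 counts each, hardly differed. Ptgis fell by 5.23 on the log2 scale (standard error 0.50, 95% interval -6.36 to -4.10; edgeR, adjusted p = 8.33e-05). Its exons overlap those of 1110018N20Rik on the other strand over 6.08% of their length.

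Hpgd encodes 15-hydroxyprostaglandin dehydrogenase, the enzyme that starts the inactivation of prostaglandin E2 (ENSMUSG00000031613, chromosome 8, 56294585 to 56321043, plus strand). The 250 bases before its RefSeq start site, chr8:56294302-56294551 on the plus strand of GRCm38.p6, are shown because the gene had 0 counts in each overexpression library. Capitals mark GGGCGG and ACAANG on either strand.

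Hpgd: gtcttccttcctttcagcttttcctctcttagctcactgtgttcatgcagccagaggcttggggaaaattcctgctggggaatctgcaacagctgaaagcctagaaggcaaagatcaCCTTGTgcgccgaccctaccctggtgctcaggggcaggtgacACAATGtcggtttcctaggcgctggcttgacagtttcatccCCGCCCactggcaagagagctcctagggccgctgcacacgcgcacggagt

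Hpgd had 26, 80 and 101 counts in the knockout libraries, or 0.762, 2.65 and 2.77 CPM. In the overexpression libraries a count of 0 allows up to 3 counts, which is 0.0759 to 0.101 CPM. Set against 3 counts in the overexpression library with the least effective depth, the knockout mean of 2.06 CPM was at least 20.3-fold higher (edgeR, adjusted p = 0.00121). Knockout replicate 1, at 0.762 CPM, lay nearer to that floor. Hpgd passed the count filter through its knockout counts alone, so it could only come out lower. This floor covers counting error only.

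Abcc4 encodes multidrug resistance protein 4, a pump that exports prostaglandins among other substrates (ENSMUSG00000032849, chromosome 14, 118482692 to 118706219, minus strand). Its upstream window is shown as that of the carrier that was higher under TMM scaling: chr14:118706220-118706469, minus strand, GRCm38.p6, with matches to GGGCGG on either strand in capitals.

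Abcc4: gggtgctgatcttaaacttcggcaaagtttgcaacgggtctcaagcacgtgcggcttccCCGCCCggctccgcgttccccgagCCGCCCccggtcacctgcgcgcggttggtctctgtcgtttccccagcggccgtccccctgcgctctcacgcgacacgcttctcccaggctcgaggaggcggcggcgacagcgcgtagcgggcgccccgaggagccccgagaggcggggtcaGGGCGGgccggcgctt

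Abcc4 had 22.3, 20.7 and 26.6 CPM with knockout and 61.2, 62.7 and 44.5 CPM with overexpression, and the groups did not overlap. The overexpression mean was 2.42 times the other, a log2 difference of 1.27 (standard error 0.19, 95% interval 0.85 to 1.70; edgeR, adjusted p = 0.000997). The call held whichever library was left out, and the difference was 0.010 (adjusted p = 0.978) under the epithelial scaling.

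Slco2a1 encodes the prostaglandin transporter, which takes prostaglandins into cells ahead of their breakdown by Hpgd (ENSMUSG00000032548, chromosome 9, 102988712 to 103096002, plus strand). It had 66.0, 54.5 and 59.6 CPM with knockout and 19.0, 12.4 and 9.08 CPM with overexpression. The knockout libraries lay close together and all above the overexpression libraries. Slco2a1 fell by 2.16 on the log2 scale (standard error 0.26, 95% interval -2.75 to -1.56; edgeR, adjusted p = 0.00036). An rRNA gene on the other strand overlaps 0.768% of its exons.

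Transcripts of the exporter Abcc4 and the uptake carrier Slco2a1 therefore moved in opposite directions under TMM scaling. The ratio between both carriers was read within each library, with no correction for length, and transport itself was not measured. Abcc4 had 0.339, 0.379 and 0.447 times the counts of Slco2a1 with knockout and 3.22, 5.06 and 4.89 times with overexpression. The uptake carrier gave more counts in every knockout library and the exporter in every overexpression library. The log2 ratio was -1.37 ± 0.200 with knockout and 2.11 ± 0.362 with overexpression (SD, n = 3 each), a difference of 3.48 (two-sided exact permutation test, p = 0.1, the smallest p possible). Leaving out any 1 library gave differences from 3.36 to 3.69.

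The 3 genes that fell were measured beside markers of other cell types. Knockout replicate 1, the lowest knockout library for Ptgis and Hpgd, also had the lowest fibroblast sum of its group (53125 CPM, against 81063 and 76207 CPM in replicates 2 and 3). Slco2a1 did not follow that order, since knockout replicate 1 was its highest library. Endothelial markers summed to 40.1, 60.9 and 135 CPM with knockout and to 14.04 to 20.8 CPM with overexpression. Of 10 genes 9 were tested, and 8 were lower past the threshold, against 18.0% of all genes. Among these, Cdh5, Kdr and Cldn5 had at most 4 counts in an overexpression library. They passed the count filter through their knockout counts alone and could only come out lower. Cdh5 and Kdr reached at most 0.101 CPM in an overexpression library, while Pecam1 had 2.08, 2.33 and 3.64 CPM there. Tek, the tested marker of this list that did not pass (adjusted p = 0.216), had 16.9, 9.34 and 15.1 CPM with overexpression and 9.67, 24.7 and 34.4 CPM with knockout.

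Mural cell markers summed to 604, 468 and 501 CPM in knockout replicates 1, 2 and 3 and to 91.7 to 132 CPM with overexpression. Of these markers, 7 of 8 were lower and 1, Notch3, was higher, against 18.0% lower and 13.6% higher over all genes. Kcnj8, with at most 2 counts in an overexpression library, passed the count filter through its knockout counts alone and could only come out lower. Knockout replicate 1 thus had the highest mural sum of its group, unlike its place for Ptgis and Hpgd. White blood cell markers summed to 42.1, 65.3 and 165 CPM in the knockout replicates and 27.4 to 71.9 CPM with overexpression, so their groups overlapped. Of these 12 markers 10 were tested, and 6 were lower and 1, Cd14, was higher. Among the lower ones, Nkg7 and Cd8a had at most 8 counts in an overexpression library. They passed the count filter through their knockout counts alone and could only come out lower. Mast cell markers summed to 14.5, 13.6 and 11.4 CPM in the knockout replicates, again highest in replicate 1. They summed to at most 0.481 CPM with overexpression, where Cpa3, Mcpt4 and Fcer1a had 0 counts. The part of such cells in the lower levels of Ptgis, Hpgd and Slco2a1 was not tested.

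**Figure D3:**
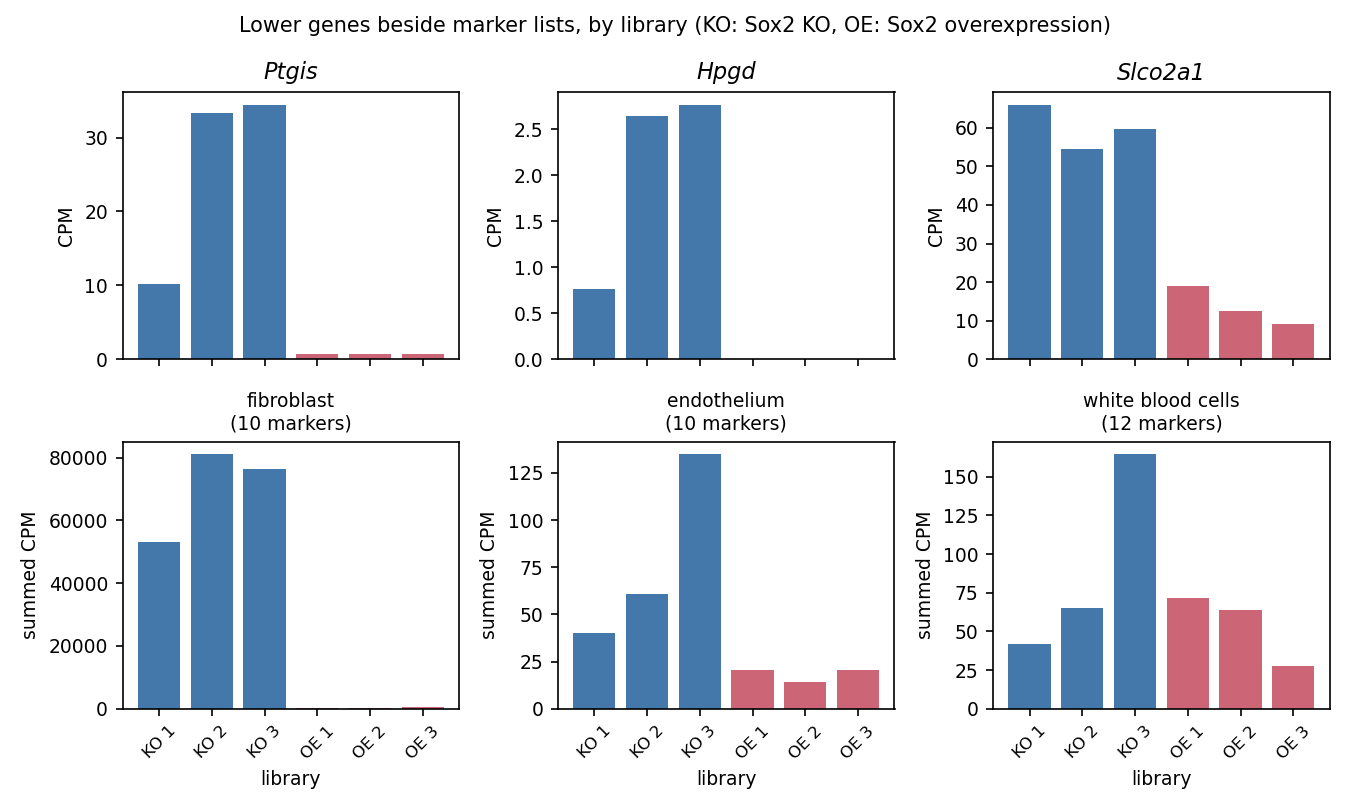
Level of Ptgis, Hpgd and Slco2a1 in each library (top, CPM) above the summed level of fibroblast, endothelial and white blood cell markers in the same libraries (bottom, CPM), with blue bars for Sox2 KO and red bars for Sox2 overexpression. Knockout replicate 1 is the lowest knockout bar for Ptgis, Hpgd and all 3 marker sums, and the highest bar for Slco2a1. The mural and mast cell sums, which are not drawn, were highest in knockout replicate 1.

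Levels were compared between genes only per length, as CPM per kilobase of annotated exon. With knockout the order was Ptgs2 (65.7 ± 10.1), Ptges (52.7 ± 11.1), Ptges3 (29.2 ± 1.70), Ptgs1 (28.2 ± 9.75), Ptgis (10.1 ± 5.33), Ptges2 (5.37 ± 0.227), Pla2g4a (4.49 ± 0.450), Slco2a1 (4.43 ± 0.425), Abcc4 (3.63 ± 0.478) and Hpgd (1.22 ± 0.668), each as mean CPM per kilobase ± SD over 3 libraries. Neighbours in this order overlapped between libraries except Ptges over Ptges3, Ptgs1 over Ptgis, Ptges2 over Pla2g4a and Abcc4 over Hpgd. The inducible pair of cyclooxygenase-2 and microsomal prostaglandin E synthase-1 therefore led the list in the knockout group as well.

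With overexpression Ptges came first at 121 ± 9.78 CPM per kilobase and Ptgs2 came next at 109 ± 35.1 (SD, n = 3 each), and these neighbours overlapped. Ptgs1 (40.1 ± 9.42) and Ptges3 (26.7 ± 3.56) followed and overlapped as well. Abcc4 (8.79 ± 1.59), Ptges2 (8.40 ± 2.77) and Pla2g4a (6.91 ± 3.02) formed a group of overlapping levels. Slco2a1 (0.995 ± 0.372), Ptgis (0.269 ± 0.0110) and Hpgd (0 in all libraries) closed the order, each apart from the next. Taking the length of the longest coding transcript in place of all exons kept the means of Ptgs2 and Ptges leading in both groups. It raised Pla2g4a to 10.1 CPM per kilobase with knockout and 15.5 with overexpression. With knockout it also put Ptgs1 (38.1) ahead of Ptges3 (32.4) and moved Ptges2 from place 6 to place 8. Overlap between libraries was not read at that length.

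**Figure D4:**
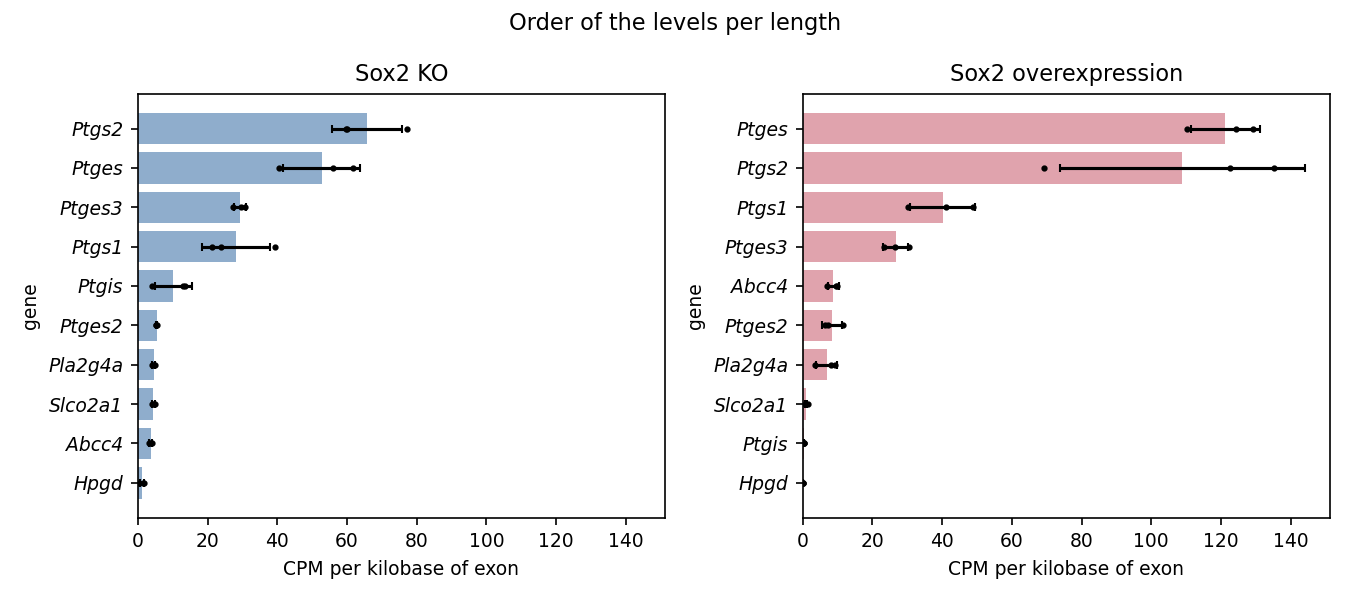
Mean CPM per kilobase of exon for each gene with Sox2 KO (left, blue) and with Sox2 overexpression (right, red), ordered by level, with the SD over 3 libraries as bars and each library as a dot. Ptgs2 and Ptges lead both groups, and Slco2a1, Ptgis and Hpgd end the overexpression order.

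Of the 10 genes, 9 had an upstream window in the RefSeq promoter table for GRCm38.p6, and Ptgis had none. The windows of Ptges, Hpgd and Ptgs1 held ACAANG, a sequence found in the same window of 36.3% of 32851 promoters. In Ptges the match lay 188 to 183 bases before the start, and in Hpgd the pair of matches lay 133 to 128 and 91 to 86 bases before it. A gene that was higher and a gene that was lower thus both held the letters, and Abcc4 and Slco2a1 did not. The whole window of Slco2a1, 250 bases, lies in annotated exons of other Slco2a1 transcripts, and parts of those of Ptgs2 and Ptges3 also lie in annotated exons, so they are not purely upstream sequence. The window of Ptges lies inside the annotated span of its gene, outside annotated exons. GGGCGG occurred in the windows of Abcc4, Hpgd, Ptges, Ptges3, Ptgs2 and Slco2a1 (32.7% of promoters), and TATAAA in that of Slco2a1, 29 to 24 bases before the start (12.4%). The NF-kB pattern was found in the window of Ptges3 (17.6%), where it overlaps a GC box. TGACGT (6.47%) and TGANTCA (6.75%) were in 0 of the 9 windows. These are matches of letters in a short window, not measured binding.

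The rest of prostanoid biology was read from a list of 39 further genes, of which 31 were tested. Of these, 15 passed the threshold (48.4%, against 31.6% of all genes), 3 higher and 12 lower, with a median log2 fold change of -0.42 against -0.016 over all genes. Under the epithelial scaling, which lowers the median of all genes to -1.25, 22 passed, 1 higher and 21 lower. Of all 18504 genes tested, 13893 passed there and 13577 of them were lower, so most genes were called. Of the 12 lower genes, 5 were receptors, 3 terminal synthases and 2 breakdown enzymes. Those receptors, the synthase Fam213b and the carrier Slco3a1 had at most 4 counts in an overexpression library. They passed the count filter through their knockout counts alone and could only come out lower. The genes of arachidonate release mostly did not pass, with 1 of 10 lower and 0 higher. That gene, Pla2g4b, shares 66.5% of its exon length with the read-through gene Gm28042, so its level of 5.18 ± 0.607 CPM with knockout and 2.39 ± 0.234 with overexpression (SD, n = 3 each) is uncertain.

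The receptors carry the prostanoid signal into the cell. Of 9 genes 8 were tested, and 5 were lower and 1 higher past the threshold, against 18.0% lower and 13.6% higher over all genes. The 5 lower ones had at most 4 counts in an overexpression library and passed the count filter through their knockout counts alone. They could only come out lower, so their direction is no separate support. Ptgfr, the prostaglandin F receptor, had 252, 172 and 177 counts with knockout and 0, 1 and 2 with overexpression, a ratio of 202 between the groups' depth-scaled sums (95% exact counting interval 68.9 to 984; edgeR, adjusted p = 2.27e-05). This interval and the other counting intervals given for ratios cover counting error only and leave out the spread between libraries. Ptgir, the prostacyclin receptor, had 255, 95 and 179 counts with knockout and 0, 0 and 2 with overexpression, a ratio of 267 (interval 73.6 to 2212; adjusted p = 9.85e-05). The receptor for prostacyclin and its synthase Ptgis were thus low together, with at most 0.0506 and 0.710 CPM in an overexpression library.

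Ptger2, a prostaglandin E2 receptor that raises cyclic AMP, had 32, 16 and 28 counts with knockout and 1, 0 and 1 with overexpression (adjusted p = 0.000845). Tbxa2r, the thromboxane receptor, had 32, 55 and 38 counts with knockout and 4, 4 and 2 with overexpression (adjusted p = 0.00126). Ptger3, chosen after its values were seen, as was Ptger4, had 47, 100 and 37 counts against 3, 0 and 3 (adjusted p = 0.00168), and knockout replicate 2 carried much of it (a knockout mean of 1.90 CPM with that library and 1.196 CPM without). Ptger4, the other prostaglandin E2 receptor that raises cyclic AMP, was the one that was higher, with 11.1, 9.16 and 12.4 CPM with knockout and 20.7, 18.9 and 19.7 CPM with overexpression. The log2 difference of 0.86 (standard error 0.18; edgeR, adjusted p = 0.00654) became -0.41 (adjusted p = 0.294) under the epithelial scaling.

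Among the other terminal synthases 3 of 7 were lower (42.9%, against 18.0% of all genes) and 0 higher. Of the 3, Fam213b passed the count filter through its knockout counts alone. Fam213b, also named Prxl2b and known to make prostaglandin F2 alpha, had 53, 61 and 112 counts with knockout and 0, 2 and 0 with overexpression, a ratio of 114 (95% exact counting interval 31.2 to 948; edgeR, adjusted p = 0.000425). Cbr1, a carbonyl reductase that acts on prostaglandin E2, was at 11.5 ± 3.06 CPM with knockout and 1.95 ± 0.369 with overexpression (SD, n = 3 each), with a log2 difference of -2.56 (adjusted p = 0.000275). Akr1c18, an aldo-keto reductase, had 2.58, 9.33 and 14.99 CPM with knockout and 2.14, 1.49 and 0.911 CPM with overexpression, and its adjusted p of 0.0125 became 0.0601 without overexpression replicate 2; 8.38e-06 to 0.0601 over the alternatives. Leaving out knockout replicate 3 took its knockout mean from 8.97 to 5.95 CPM.

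Breakdown and transport held genes in both directions. Ptgr1, which reduces the products that Hpgd makes, had 15.7, 25.7 and 23.4 CPM with knockout and 46.9, 79.3 and 49.02 CPM with overexpression, a log2 difference of 1.44 (standard error 0.26; edgeR, adjusted p = 0.00332), which was 0.14 (adjusted p = 0.698) under the epithelial scaling. Ptgr2 and Zadh2, reductases of the same step, had log2 fold changes of -0.51 and -0.53 and adjusted p-values of 0.0423 and 0.0273. The call was lost in 8 of 13 alternatives for Ptgr2 (adjusted p from 0.000222 to 0.155) and in 7 of 13 for Zadh2 (0.000138 to 0.105), and 31.98% of the exon length of Ptgr2 overlaps Gm47484 on the other strand.

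Slco3a1, a carrier of the same family as Slco2a1, had 529, 844 and 1186 counts with knockout and 3, 4 and 3 with overexpression, a ratio of 258 (95% exact counting interval 140 to 540; edgeR, adjusted p = 3.46e-06). Slco4a1 of that family was at 2.54 ± 1.18 CPM with knockout and rose to 13.5 ± 2.34 CPM with overexpression (SD, n = 3 each), by 2.41 on the log2 scale (adjusted p = 0.00101), and stayed higher under the epithelial scaling (1.09, adjusted p = 0.0462).

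**Figure D5:**
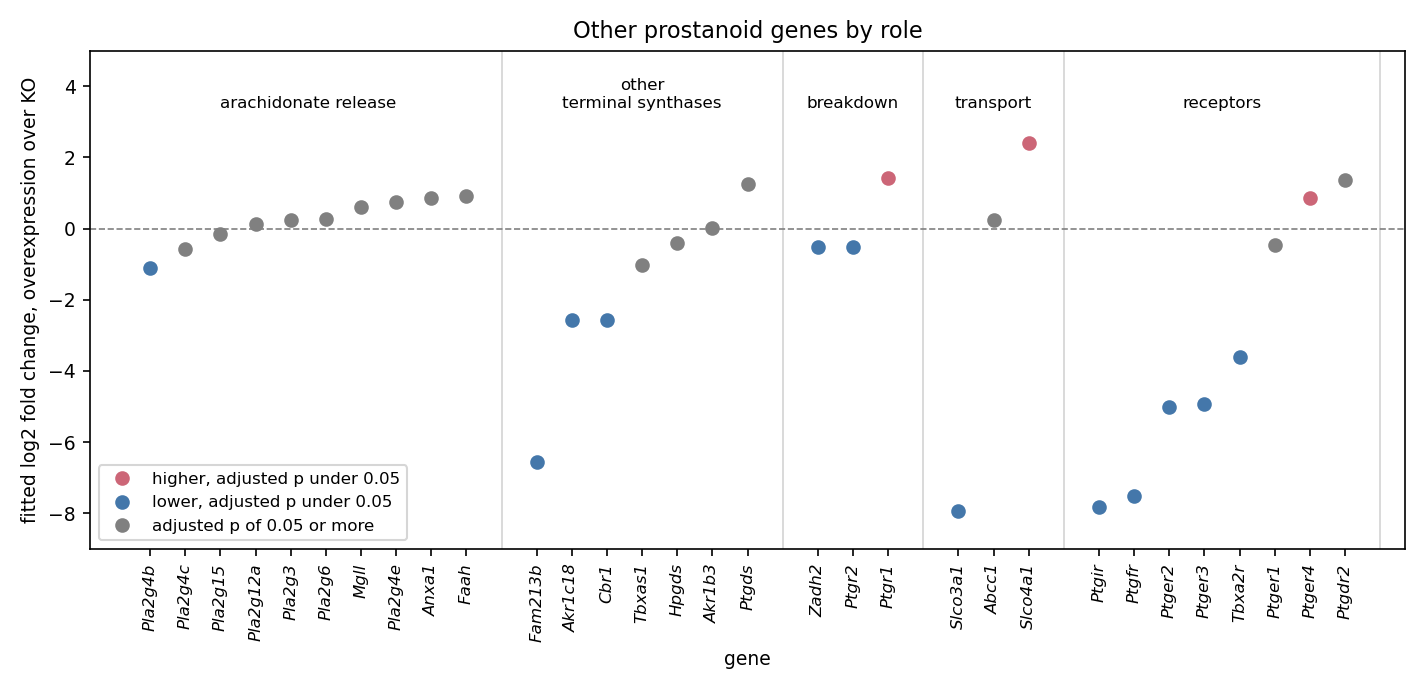
Fitted log2 fold change of overexpression over knockout for the 31 tested genes of the wider prostanoid list, grouped by role, with red for higher, blue for lower and grey for not past an adjusted p of 0.05. Fitted values near the bottom of the axis belong to genes with at most 4 counts in an overexpression library and do not measure the size of the fall. Of the 8 receptors shown 5 are blue and 1, Ptger4, is red. The blue receptors passed the count filter through their knockout counts alone.

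Genes with a pattern most like that of 3 members were listed by Pearson correlation of log2 CPM over the 6 libraries, among up to 8452 genes with an average log2 CPM of at least 4. Ptges was followed most closely by Ptprf (r = 0.9996), Trib2 (0.998) and Tfap2a (0.998), Ptgs2 by Angpt1 (0.989), Vav3 (0.983) and Zc2hc1a (0.982), and Ptgis by Sema3b (0.999), Spon2 (0.999) and Dapk1 (0.998). These correlations describe 6 libraries in 2 groups that share depth and scaling, and say nothing of shared function.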

How the data were processed

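Raw gene counts as deposited by the authors (whole numbers, not normalized, 1 column for each library) were the starting point. The submitters' processing notes name kallisto 0.44.0 and mm10. The annotation, the strand setting and any rounding of transcript estimates to gene counts are not given in the sources used here, so reads of overlapping genes could have been split. Of 55481 rows, 55385 are mouse genes, and the other 96 (spike-in and construct sequences, at most 2.23e-05% of a library's counts) were left out. Symbols, positions and exon lengths came from GENCODE M21 (GRCm38), which matched 55144 IDs. Upstream windows of 250 bases came from RefSeq (GRCm38.p6).

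After filterByExpr (counts of at least 10, total of at least 15), 18504 genes were scaled with TMM and compared, overexpression over knockout, by edgeR 4.0.16 (quasi-likelihood test) in R 4.3.3, with group as the only term. P-values were adjusted by Benjamini-Hochberg over all tested genes (threshold 0.05). Standard errors are the fold change over the square root of F. CPM use TMM-scaled library sizes. Count ratios within a library used a pseudocount of 0.5. The alternatives were RLE and upper-quartile scaling, scaling to 15 epithelial markers by their median ratio, no filter, robust dispersion, a replicate block, DESeq2 1.42.0, and leaving out each library. The labels do not say that replicates were separate tumours, so p-values measure the spread between these libraries. No batch or date is in the labels.

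All 10 members are named, with up to 4 called genes of each role of the wider list by smallest p-value and the 3 genes most correlated with Ptges, Ptgs2 and Ptgis. Ptger3, Ptger4 and Anxa1 fall outside this rule and were chosen after their values were seen. The members and lists were chosen with earlier results of these data known.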

Additional observations from a re-analysis of the deposited data

Results flagged for a closer look

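The mCherry construct, a row that names no mouse gene and enters no comparison here, had 8 counts in knockout replicate 3, above the 3 counts that a count of 0 allows. It had 1 count in knockout replicate 2 and 0 in the other libraries.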

How the results depend on the processing

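Ptgis, Hpgd, Slco2a1 and Sox2 kept their direction and call in each of 13 alternatives. The direction of Hpgd was fixed by its 0 counts with overexpression. Scaling to the epithelial markers moved the median log2 fold change of all genes from -0.016 to -1.25, called 13893 genes (2.27% higher and 97.7% lower, against 43.1% and 56.9% under TMM), and, with that shift of the median, turned the sign of Pla2g4a (-0.58), Ptgs1 (-0.69), Ptgs2 (-0.49) and Ptges2 (-0.62), of which Ptgs1 alone passed the threshold, and left Ptges close to 0 (-0.0013). Without the count filter 8 of the 10 members passed the threshold, against 5 with it, and the cause was not tested. The number of all genes called also grew, from 5848 to 6648, in a fit that took in more genes. With 1 library left out the count of members ranged from 5 to 8, the latter without overexpression replicate 2, where Pla2g4a, Ptgs2 and Ptges2 passed too. In those fits the number of genes called ranged from 4230 to 5821, and the number called higher was 1446 without knockout replicate 2 and 1610 without knockout replicate 3, against 2519 in all libraries. The difference in the log2 ratio of Ptgs2 to Ptgs1 ranged from -0.23 to 0.60 with 1 library left out, and it reversed to -0.18 when knockout replicate 1 and to -0.23 when overexpression replicate 3 was left out. With the replicate number as a block, 5593 genes were called, 6 members among them, the added one being Ptges2 (adjusted p = 0.0482). For libraries with the same number, the correlations of deviations from the group means were 0.051, 0.022 and -0.0399. For libraries with different numbers they ran from -0.067 to 0.050. These values cannot show whether libraries with the same number shared a batch, and the labels do not say what the number marks. Among the other pathway genes 3 were called higher and 12 lower, 1 and 21 under the epithelial scaling, and the number higher was 5 without the filter, with the block and in DESeq2. Depth limits Hpgd and the receptors with 0 to 4 counts per overexpression library.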
